A study of Homo sapiens with 9 samples.

Results

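The histone gene clusters were followed in RNA sequencing of SKMEL28 cells, an established human melanoma line. Members were the rows of the deposited tables whose symbol starts with HIST1, HIST2, HIST3 or HIST4 followed by H1, H2A, H2B, H3 or H4, leaving out symbols that contain PS. The rule uses names only, and it found 76 genes of 48162 in the tables. They comprise 6 H1, 17 H2A, 23 H2B, 15 H3 and 15 H4 genes, of which 55 lie on chromosome 6, 20 on chromosome 1 and 1 on chromosome 12. All 9 libraries came from cells infected with lentiviral pLKO.1 short hairpins and selected with puromycin. The groups were shCont, with a control hairpin against GFP, shp16, with a hairpin against p16, and shp16/shATR, with hairpins against p16 and ATR, at 3 libraries each. The study calls its mRNA measurement of a gene in these groups a single experiment with technical replicates, and nothing in the sources used here gives separate infections for the libraries. The p-values therefore cover the spread between these libraries only, which may be technical. Which ATR hairpin was used is not given in the sources used here.

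Histones are the proteins around which DNA is wrapped. H2A, H2B, H3 and H4 form the core of the nucleosome, and H1 binds the linker DNA between cores. Most histone protein is made in S phase from the clustered genes, whose messenger RNAs usually lack introns and end in a conserved stem-loop in place of a poly(A) tail. The stem-loop is bound by SLBP, and NPAT drives transcription of the clusters. Some clustered genes can also give longer transcripts that run past the stem-loop and carry a poly(A) tail, and other histone genes outside the clusters are expressed through the whole cell cycle. Whether the libraries were made from poly(A)-selected RNA is not given in the sources used here, and such a selection would bear on every level reported for these genes.

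The stem-loops of 4 members are shown because they mark where the usual histone messenger RNA ends, and because 3 of these genes are among those that differed between groups. Capitals mark the 6 paired bases on each side and lower case the 4-base loop. They were read 5′ to 3′ from GENCODE release 29 transcripts on GRCh38, at chr6:26124669-26124684 on the plus strand for HIST1H2AC, chr6:26123472-26123487 on the minus strand for HIST1H2BC, chr6:26158587-26158602 on the plus strand for HIST1H2BD and chr6:26285131-26285146 on the minus strand for HIST1H4H.
HIST1H2AC: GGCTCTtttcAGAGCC
HIST1H2BC: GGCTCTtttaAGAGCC
HIST1H2BD: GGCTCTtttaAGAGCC
HIST1H4H: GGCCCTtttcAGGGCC
In the transcripts read, 1128 bases follow the stem-loop in HIST1H2AC, 116 in HIST1H2BC, 39 in HIST1H2BD and 1655 in HIST1H4H. A 16-base stem-loop of this form was found in annotated transcripts of 34 of the 76 members. The search misses a stem-loop of another form or one past the annotated end, so the other members are not shown to lack one. Among protein-coding genes it was found in 31 of 70 members and in 44 of all 19922 genes, or 0.221%. For 14 members, HIST1H2AC, HIST1H2BC, HIST1H2BD and HIST1H2BK among them, the gene in the deposited table spans more bases than its exons hold, so that its model is spliced. The other 62 are intronless in the table.

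The promoters of HIST1H1E, the linker histone gene that stands for the clusters, and of 3 core histone genes whose level differed between groups are shown because these genes lie close together on chromosome 6. Each window holds 300 bases on GRCh38.p14, on the plus strand, from 250 before to 50 after the RefSeq start of the gene. The windows are at chr6:26123922-26124221 for HIST1H2AC, chr6:26156079-26156378 for HIST1H1E, chr6:26157871-26158170 for HIST1H2BD and chr6:26223928-26224227 for HIST1H3E. For HIST1H3E the RefSeq start lies farther from the start in the deposited table (GRCh37) than it does for the other 3 genes. Its window may therefore lie upstream of the intronless gene that was counted and not hold the promoter of that gene. Capitals mark matches to CCAAT, to TATAAA and to the octamer ATTTGCAT on either strand, and overlapping matches run together.
HIST1H2AC: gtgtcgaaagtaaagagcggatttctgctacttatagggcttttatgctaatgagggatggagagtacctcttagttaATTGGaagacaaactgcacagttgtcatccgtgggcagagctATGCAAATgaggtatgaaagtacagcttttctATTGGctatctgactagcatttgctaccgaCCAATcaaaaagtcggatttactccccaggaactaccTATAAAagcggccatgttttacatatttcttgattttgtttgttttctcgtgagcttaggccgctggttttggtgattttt
HIST1H1E: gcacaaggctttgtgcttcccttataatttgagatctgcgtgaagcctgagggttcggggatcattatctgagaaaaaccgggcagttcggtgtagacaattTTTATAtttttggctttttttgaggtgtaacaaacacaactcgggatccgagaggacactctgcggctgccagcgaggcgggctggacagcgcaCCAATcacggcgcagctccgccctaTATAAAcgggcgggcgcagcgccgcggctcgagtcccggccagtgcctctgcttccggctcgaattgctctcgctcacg
HIST1H2BD: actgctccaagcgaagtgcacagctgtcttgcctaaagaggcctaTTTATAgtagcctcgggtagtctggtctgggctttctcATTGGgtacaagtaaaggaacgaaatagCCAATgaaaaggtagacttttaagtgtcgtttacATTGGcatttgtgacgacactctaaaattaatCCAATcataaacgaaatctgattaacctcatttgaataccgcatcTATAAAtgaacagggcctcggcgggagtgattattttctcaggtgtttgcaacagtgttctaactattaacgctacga
HIST1H3E: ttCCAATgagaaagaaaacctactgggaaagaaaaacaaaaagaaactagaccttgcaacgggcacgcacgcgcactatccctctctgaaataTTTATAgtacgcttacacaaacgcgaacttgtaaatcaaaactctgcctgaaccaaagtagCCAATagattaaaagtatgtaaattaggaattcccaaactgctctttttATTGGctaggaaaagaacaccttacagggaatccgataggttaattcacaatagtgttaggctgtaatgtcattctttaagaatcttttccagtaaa
HIST1H2BC is read in the opposite direction from HIST1H2AC, and 255 of the 300 bases of its window are the same stretch of DNA. Of the 76 members, 61 had a window in the RefSeq table, and neighbouring genes that point apart can share theirs. CCAAT occurred in all of the 6 H1, 14 H2A, 18 H2B and 10 H3 windows and in 3 of 13 H4 windows, against 35.7% of all 27305 windows. The octamer occurred in 11 of 14 H2A and 14 of 18 H2B windows, in 1 of 10 H3 windows and in none of the H1 or H4 windows, against 1.8% of all windows. TATAAA occurred in 40 of the 61 windows against 12% of all windows, and GGTCC in 12 of 13 H4 windows against 46.1%. TTTGGCGC was in none of the 61 windows and in 0.659% of all windows. A match here describes the letters in a window and is not evidence of binding.

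The cells and libraries were checked once. Library totals ran from 17314662 to 23588174 counts, and the melanocyte markers MITF, PMEL, MLANA, TYR, DCT, SOX10 and S100B summed to between 7680 and 14881 CPM (counts scaled to a common library size, with TMM factors) in the 9 libraries. The keratinocyte marker KRT5 was at 0 in all shCont libraries, between 2.03 and 2.99 CPM in shp16 and between 0.359 and 2.25 CPM in shp16/shATR, and KRT14 ran from 0 to 0.154, 2.09 to 2.96 and 1.13 to 2.77 CPM in the same groups, while the leukocyte marker PTPRC was at 0 throughout. The summed level of KRT5, KRT14, PTPRC and EPCAM ran from 0.257 to 0.549 CPM in shCont, from 4.34 to 5.26 in shp16 and from 2.00 to 5.08 in shp16/shATR, and its part in the differences reported here was not tested. CDKN2A, which encodes p16 and is the target of the first hairpin, was lower in all shp16 libraries than in shCont but did not pass the threshold in edgeR (log2 fold change −0.48, standard error (SE) 0.16, adjusted p = 0.0723), and it did in DESeq2 (adjusted p = 0.0418), with no filter on low counts and without shCont replicate 3. ATR fell in shp16/shATR against shp16 (log2 fold change −1.12, SE 0.22, adjusted p = 0.0128). That call held in 12 of the 16 other fits described below, with adjusted p up to 0.0707. It was lost without shp16 replicate 1, although the fold change stayed between −1.15 and −1.07 over the 16 fits. The ATR level of shCont replicate 1, at 45.9 CPM, lay close to the 39.9 to 41.0 CPM of shp16/shATR. shCont replicate 1 and shp16 replicate 1 stood apart from the rest of their groups, with a mean chi-square per gene of 33.0 to 74.5 in pairs that include them against 1.92 to 8.72 in the other pairs within a group. Results are therefore given with and without these libraries where they move.

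Histone cluster transcripts were scarce in these libraries. The 76 members together took between 0.00807% and 0.0115% of the counts of a library, or 17494 counts in all 9. No read was counted for 9 members in any library, another 9 had fewer than 10 counts in total, and 18 had a mean of at least 1 FPKM (fragments per length of gene and per library total, the unit in which levels of different genes can be compared). HIST1H2BK alone gave 30.8% of the member counts, HIST1H1C 13.4% and HIST1H2AC 11.8%. H2B genes gave 53.8% of the counts, H2A genes 20.4%, H1 genes 16.4%, and H3 and H4 genes 4.70% and 4.66%.

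Within each class 1 or a few genes carried most of the level. HIST1H2BK, an H2B gene with a spliced model, spans positions 27106073 to 27114619 of chromosome 6 on the minus strand (GRCh37, as in the deposited table). It was the most abundant member, with 35.9 ± 3.24, 34.0 ± 1.83 and 37.5 ± 2.54 FPKM in shCont, shp16 and shp16/shATR (SD over 3 libraries each). The gene overlaps HIST1H4I on the other strand, and 74.1% of the 50-base stretches of its longest transcript recur in other transcripts, so its level is uncertain. HIST1H1C, which encodes a linker histone, held 82.4% of the H1 level, with 15.6 ± 3.73, 16.6 ± 2.26 and 20.2 ± 1.54 FPKM in shCont, shp16 and shp16/shATR. HIST1H1E followed at 1.60 ± 0.819, 2.61 ± 0.497 and 3.20 ± 0.752 FPKM, ahead of HIST1H1B and HIST1H1A at means of 0.620 and 0.508 FPKM.
Among H2A genes HIST3H2A, from the small cluster of chromosome 1, was highest at 9.34 ± 1.27, 9.56 ± 1.61 and 9.90 ± 1.22 FPKM over the 3 groups, and HIST1H2AC came next at 4.47 ± 0.0281, 5.38 ± 0.742 and 10.5 ± 0.375 FPKM. In shp16/shATR these 2 genes were at the same level within their spread, which they were not in shCont. HIST2H2AC and HIST1H2AE followed at means of 1.68 and 1.34 FPKM. HIST2H2BB, annotated as a transcribed pseudogene, and HIST2H2BA, likewise a pseudogene, had mean levels of 10.5 and 4.68 FPKM over all libraries, and 94.8% and 73.4% of their 50-base stretches recur elsewhere. HIST1H3E, HIST1H3H, HIST1H3C and HIST2H3D led the H3 genes at means of 2.46, 1.81, 0.884 and 0.809 FPKM, and HIST1H4H, HIST4H4, HIST1H4K and HIST1H4A the H4 genes at 1.44, 0.758, 0.709 and 0.598 FPKM. The spread of the H3 and H4 genes over libraries was wide at these depths, as HIST1H4A shows, which had between 0 and 10 counts.

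**Figure D1:**
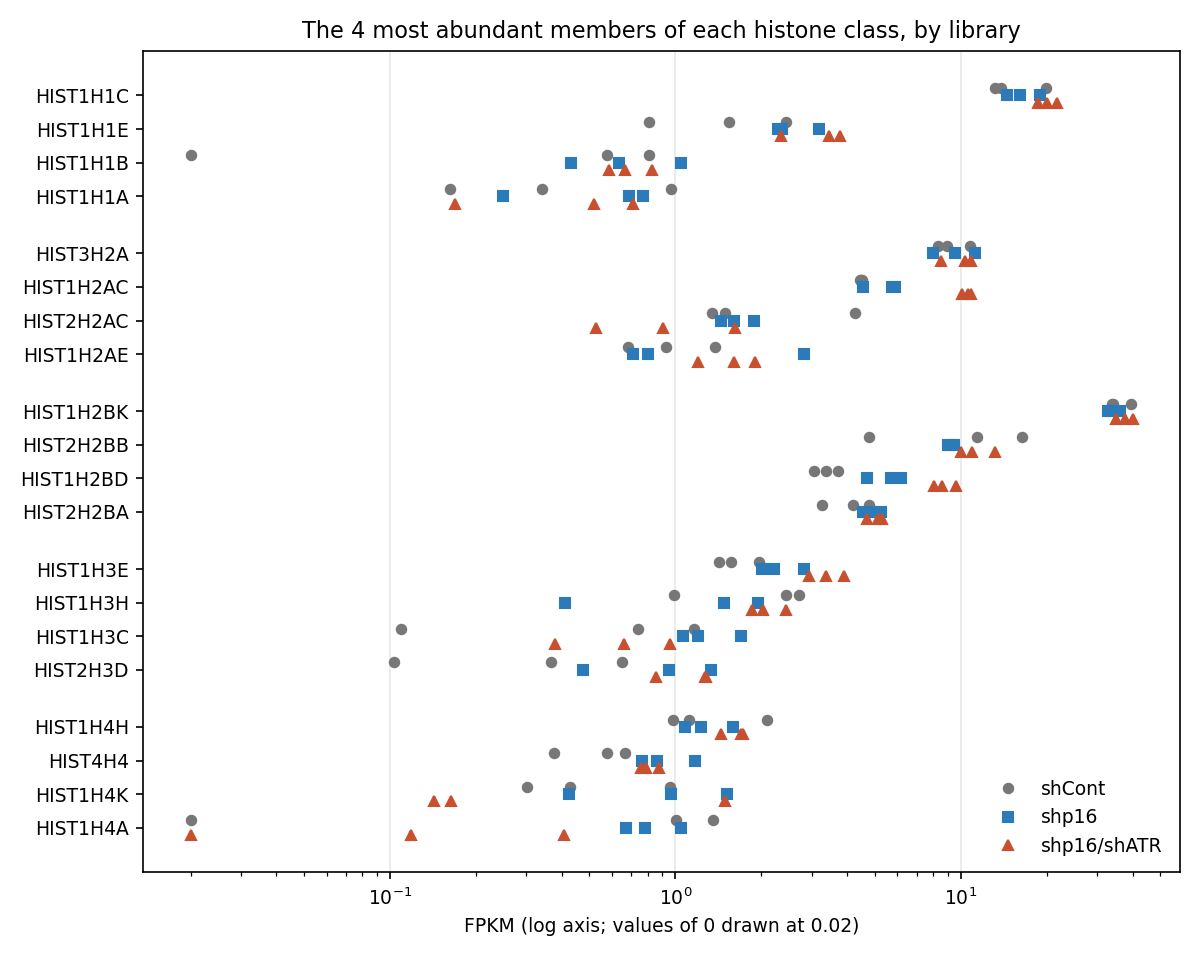
FPKM on a log axis (0 drawn at 0.02) of the 4 most abundant members of each histone class, 1 point for each of the 9 libraries, grey circles for shCont, blue squares for shp16 and orange triangles for shp16/shATR. The group means of HIST1H2BK lie between 34.0 and 37.5 FPKM, whereas HIST1H2AC and HIST1H2BD lie highest in the 3 shp16/shATR libraries.

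The sum over all 76 members needs no filter on low counts. It was 88.6, 81.1 and 80.1 CPM in shCont replicates 1, 2 and 3, 95.3, 91.3 and 91.5 in shp16, and 115, 107 and 114 in shp16/shATR. The 3 groups did not overlap, with means of 83.3 ± 4.68, 92.7 ± 2.22 and 112 ± 4.42 CPM (SD, n = 3 each), and shp16/shATR was at 1.34 times shCont. A sum over members gets no p-value here. The H2A genes summed to 17.7, 14.1 and 14.4 CPM in the shCont libraries, 16, 17.8 and 17.4 in those of shp16 and 26.8, 25.2 and 27.0 in those of shp16/shATR. The H2A sum in shp16/shATR was thus 1.71 times shCont, or 1.33 times in summed FPKM, where genes with long exons such as HIST1H2AC count for less per read. H2B genes summed to 47.0 ± 0.425, 50.3 ± 3.18 and 57.4 ± 2.54 CPM and H1 genes to 13.6 ± 2.25, 15.3 ± 1.15 and 18.3 ± 1.22, and in both classes the shp16/shATR libraries lay above all others. H4 genes had another order. They summed to 3.59 ± 0.256 CPM in the shCont libraries, 5.18 ± 0.179 in those of shp16 and 4.58 ± 0.325 in those of shp16/shATR, so that shp16 lay above both other groups in every library. H3 genes summed to 3.67 ± 0.426, 4.80 ± 0.345 and 5.06 ± 0.244 CPM. Without HIST1H2AC, HIST1H2BD, HIST1H2BC and HIST1H3E, the 4 members called in a comparison, the other 72 summed to 71.9 ± 4.64, 77.4 ± 3.21 and 84.1 ± 4.18 CPM. In those 72 shp16 overlapped both other groups, and shp16/shATR was at 1.17 times shCont. That overlap depended on the scaling, since the groups did not overlap in CPM without TMM factors or in summed FPKM.

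**Figure D2:**
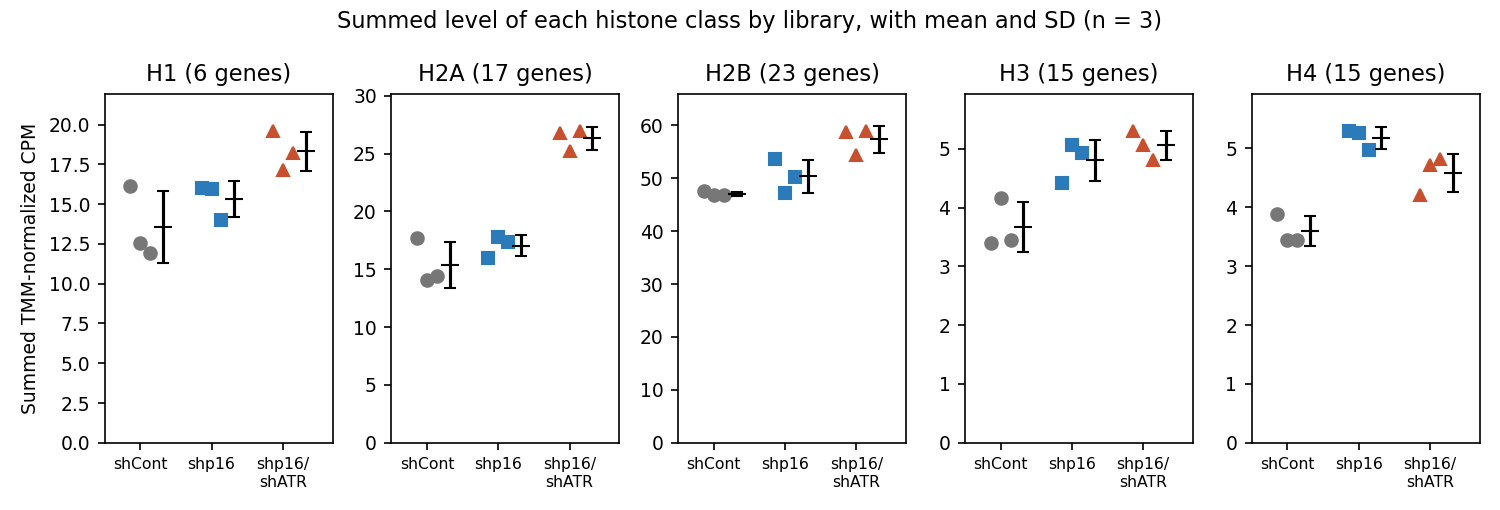
Summed TMM-normalized CPM of the genes of each histone class, 1 point per library with the mean and SD of 3 libraries beside it, each panel starting at 0. The H2A sum stands out in shp16/shATR, and the H4 sum is highest in shp16.

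Genes were compared with edgeR's quasi-likelihood test over the 15776 genes that passed its filter on low counts, with p-values adjusted over all of them and a threshold of 0.05. Of the 76 members 27 passed: 4 H1, 5 H2A, 11 H2B, 4 H3 and 3 H4 genes. In 14 of them every library reached the filter's level of 0.5 CPM. The 49 others held 6.45% of the member counts and were not tested one by one. Each comparison was fitted in 16 other ways (other normalizations, filters, tools and sets of libraries). A call of a member is given with how many of them it passed in. Calls of other named genes carry that number where some of those fits lost them.

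HIST1H2BD rose in shp16 against shCont, the comparison that asks what loss of p16 does. It was the only member of the 27 called in that comparison, against 7.23% of all genes tested called higher and 7.59% called lower. HIST1H2BD encodes an H2B core histone and lies on the plus strand of chromosome 6 from 26158349 to 26171577. Its level was 2.52, 2.57 and 2.90 CPM in the shCont libraries, 3.95, 4.74 and 4.39 in those of shp16 and 7.56, 6.66 and 6.46 in those of shp16/shATR. The groups did not overlap. HIST1H2BD was 1.64-fold higher in shp16 than in shCont (log2 0.71, SE 0.17, adjusted p = 0.0181). Over the 16 other fits it ran from 0.65 to 0.78 and passed the threshold in 12, with adjusted p from 0.00729 to 0.0703, and it missed it in the fit of only the groups compared and without shCont replicate 2, shp16 replicate 2 or shp16 replicate 3. The gene LARP1P1 overlaps HIST1H2BD on the same strand.

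No member was called lower in shp16 by edgeR, where 0 of 27 had an unadjusted p under 0.05 in that direction, nor by DESeq2 or limma. HIST4H4, an H4 gene on chromosome 12, had 0.751, 1.23 and 1.10 CPM in shCont and 1.56, 2.18 and 1.61 in shp16. These groups did not overlap, but the log2 fold change of 0.80 missed the threshold (SE 0.29, adjusted p = 0.0843). HIST1H4E, also an H4 gene, had the highest fold change of the 27 at 1.41 (SE 0.60, adjusted p = 0.139) on between 3 and 14 counts a library. The libraries of shp16 lay all above those of shCont in 6 of the 27, as in 16.8% of all genes tested. The median log2 fold change of the 27 was 0.45, with 22 above 0, against a median of −0.02 and 48.2% above 0 for all genes tested. A gene can pass the filter through the group in which it is high, so these counts describe the 27 only.

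HIST1H2AC rose in shp16/shATR against shp16, the comparison that asks what loss of ATR adds when p16 is low. It encodes an H2A core histone and spans positions 26124373 to 26139344 of chromosome 6 on the plus strand. Its level was 7.82, 7.14 and 7.39 CPM in the shCont libraries, 8.05, 9.53 and 9.36 in those of shp16 and 17.7, 16.6 and 18.4 in those of shp16/shATR. The 3 shp16/shATR libraries stood well above the other 6. The log2 fold change against shp16 was 0.97 (SE 0.13, adjusted p = 0.00149), or 1.95-fold, and it passed the threshold in all 16 other fits, at 0.89 to 1.01. HIST1H2BD was also called, at 0.66 (SE 0.16, adjusted p = 0.0341). That call held in 6 of the 16 other fits, with adjusted p from 0.00808 to 0.162, and was lost with library size alone, with no filter on low counts, without shCont replicate 2, without any 1 of the 6 shp16 and shp16/shATR libraries and in 1 further fit, although the fold change stayed between 0.59 and 0.72. These 2 members were called of 27, against 2.73% of all genes called higher and 3.49% called lower.

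In that comparison the shp16/shATR libraries lay all above shp16 in 6 of the 27 members, as in 17.6% of all genes tested. The median log2 fold change of the 27 was 0.13, and 18 were above 0, against 0.00 and 50.3% for all genes tested. Over the 16 other fits the median of the members tested ran from 0.03 to 0.33. Without shCont replicate 1, where 31 members passed the filter, it was 0.28. HIST1H3C, an H3 gene, had the lowest fold change, −0.94 (SE 0.59, adjusted p = 0.415), with 0.519, 0.759 and 0.536 CPM in shp16 and 0.173, 0.433 and 0.307 in shp16/shATR. Its groups did not overlap, on between 3 and 16 counts a library. No member was called lower by edgeR, 0 had an unadjusted p under 0.05 in that direction, and DESeq2 and limma called none lower.

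HIST1H2AC, HIST1H2BD, HIST1H2BC and HIST1H3E rose in shp16/shATR against shCont, which sets both hairpins against the control and shares its libraries with the other comparisons. They were 4 of 27 members, against 10.9% of all genes called higher and 12.7% called lower. HIST1H2AC was 2.36-fold higher (log2 1.24, SE 0.13, adjusted p = 4.79e-05). HIST1H2BD was 2.58-fold higher (log2 1.37, SE 0.17, adjusted p = 0.000178), and both calls held in all 16 other fits.
HIST1H2BC, an H2B gene on the minus strand from 26115101 to 26124154 that faces away from HIST1H2AC, had 0.353, 0.462 and 0.649 CPM in the shCont libraries, 1.19, 0.569 and 0.926 in those of shp16 and 1.21, 2.25 and 1.08 in those of shp16/shATR. Its shp16/shATR libraries were all above shCont but overlapped shp16, and its log2 fold change was 1.64 (SE 0.43, adjusted p = 0.0169) against shCont. shp16/shATR replicate 2 had 52 counts where the others had 21 each, and without that library the value was 1.22 and was not called (adjusted p = 0.102). It was also not called without shCont replicate 2, and it was called in the other 14 fits.
HIST1H3E, an intronless H3 gene on the plus strand from 26225383 to 26225844, had 0.751, 0.873 and 0.649 CPM in the shCont libraries, 0.987, 0.996 and 1.27 in those of shp16 and 1.56, 1.77 and 1.38 in those of shp16/shATR. The groups did not overlap. Its log2 fold change against shCont was 1.05 (SE 0.29, adjusted p = 0.0227), on 13 to 41 counts a library, and it was called in 12 of 16 other fits, not with no filter on low counts nor without shCont replicate 3, shp16/shATR replicate 1 or shp16/shATR replicate 2.
Without shCont replicate 1, which stood apart, all 4 were still called, at 1.27 for HIST1H2AC, 1.32 for HIST1H2BD, 1.44 for HIST1H2BC and 1.04 for HIST1H3E.

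**Figure D3:**
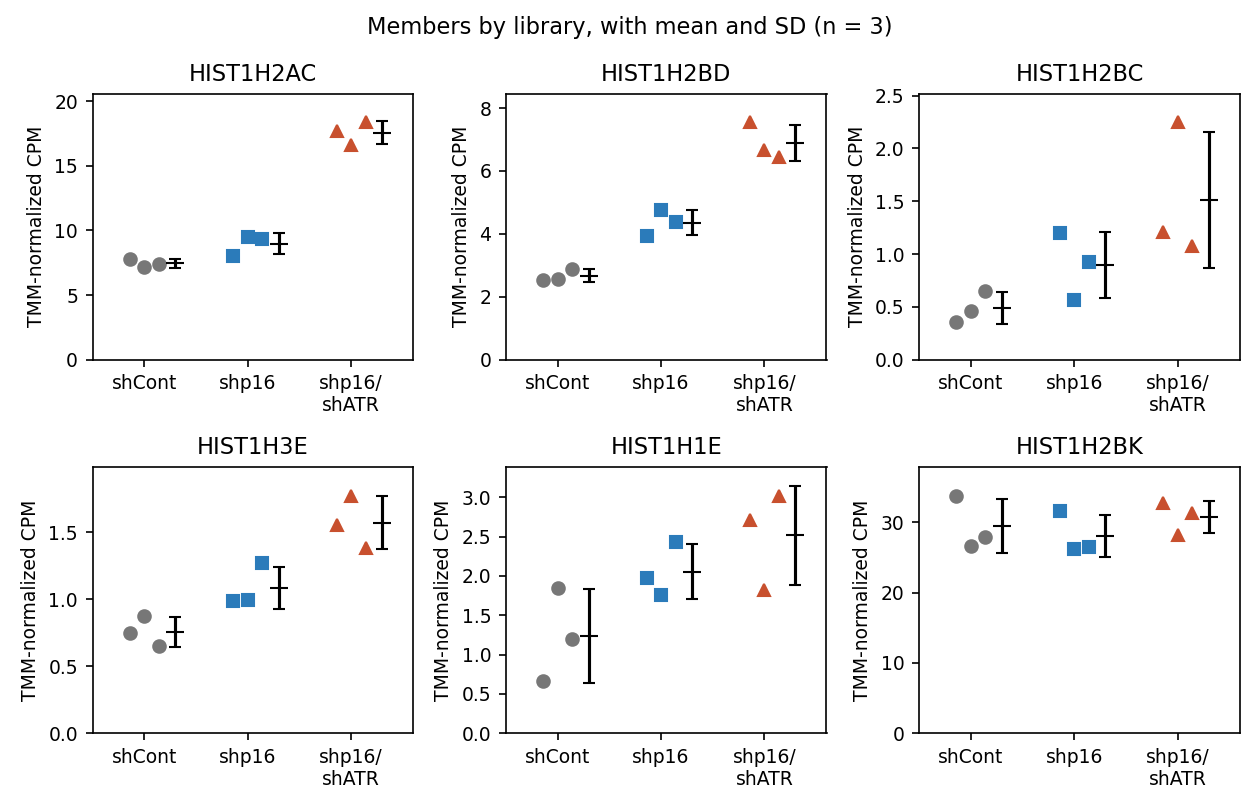
TMM-normalized CPM of the 4 members called in a comparison, of HIST1H1E and of HIST1H2BK, 1 point per library with the mean and SD of 3 libraries beside it, each panel starting at 0. HIST1H2AC is at 16.6 to 18.4 CPM in shp16/shATR and at most 9.53 elsewhere, whereas HIST1H2BK overlaps between all groups.

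HIST1H1E, which encodes a linker histone, lies on the plus strand of chromosome 6 from 26156559 to 26157343, between HIST1H2AC and HIST1H2BD. Its level was 0.663, 1.85 and 1.20 CPM in the shCont libraries, 1.97, 1.75 and 2.44 in those of shp16 and 2.71, 1.82 and 3.02 in those of shp16/shATR. The groups overlapped in every pair. The change from shCont to shp16 was 0.74 on the log2 scale (SE 0.36, adjusted p = 0.185), 0.28 in shp16/shATR against shp16 (SE 0.33, adjusted p = 0.707) and 1.03 in shp16/shATR against shCont (SE 0.35, adjusted p = 0.0539). The last passed the threshold in 3 of the 16 other fits, with DESeq2, with no filter on low counts and without shCont replicate 2. Without shCont replicate 1, its lowest library, the value was 0.71 (adjusted p = 0.109).

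No other member passed the threshold in the edgeR fit of all libraries, and most were measured on few counts. HIST2H2BE, an H2B gene, had 1.55, 2.05 and 2.65 CPM in shCont and 4.09, 2.73 and 3.02 in shp16/shATR, without overlap (log2 fold change 0.65, SE 0.26, adjusted p = 0.0876). HIST2H3D had 1, 5 and 3 counts in shCont against 9, 12 and 7 in shp16/shATR (log2 fold change 1.63, SE 0.62, adjusted p = 0.0773), and 80.4% of its 50-base stretches recur elsewhere. HIST1H2AG had 0.619, 0.514 and 0.200 CPM in shCont and 1.04, 0.779 and 1.28 in shp16/shATR (log2 fold change 1.19, SE 0.52, adjusted p = 0.126). Those 3 genes missed the threshold there. HIST2H3D passed it in limma (adjusted p = 0.0430) and HIST2H2BE without shCont replicate 3 (adjusted p = 0.0475), in each case 1 of the 16 other fits. HIST1H1C, at 0.36 on the log2 scale against shCont, passed in 1 as well, without shCont replicate 1, where it was 0.61. HIST2H2AC had the lowest fold change against shCont, −1.24 (SE 0.55, adjusted p = 0.125), with shCont replicate 1 at 1.94 CPM where all other libraries lay between 0.231 and 0.806, and without that library it was −0.43. The libraries of shp16/shATR lay all above those of shCont in 8 of the 27 members, against 20.0% of all genes tested, and 25 of the 27 fold changes were above 0, with a median of 0.59 against −0.02 for all genes. No member was called lower by edgeR, DESeq2 or limma, and 1 had an unadjusted p under 0.05 in that direction.

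**Figure D4:**
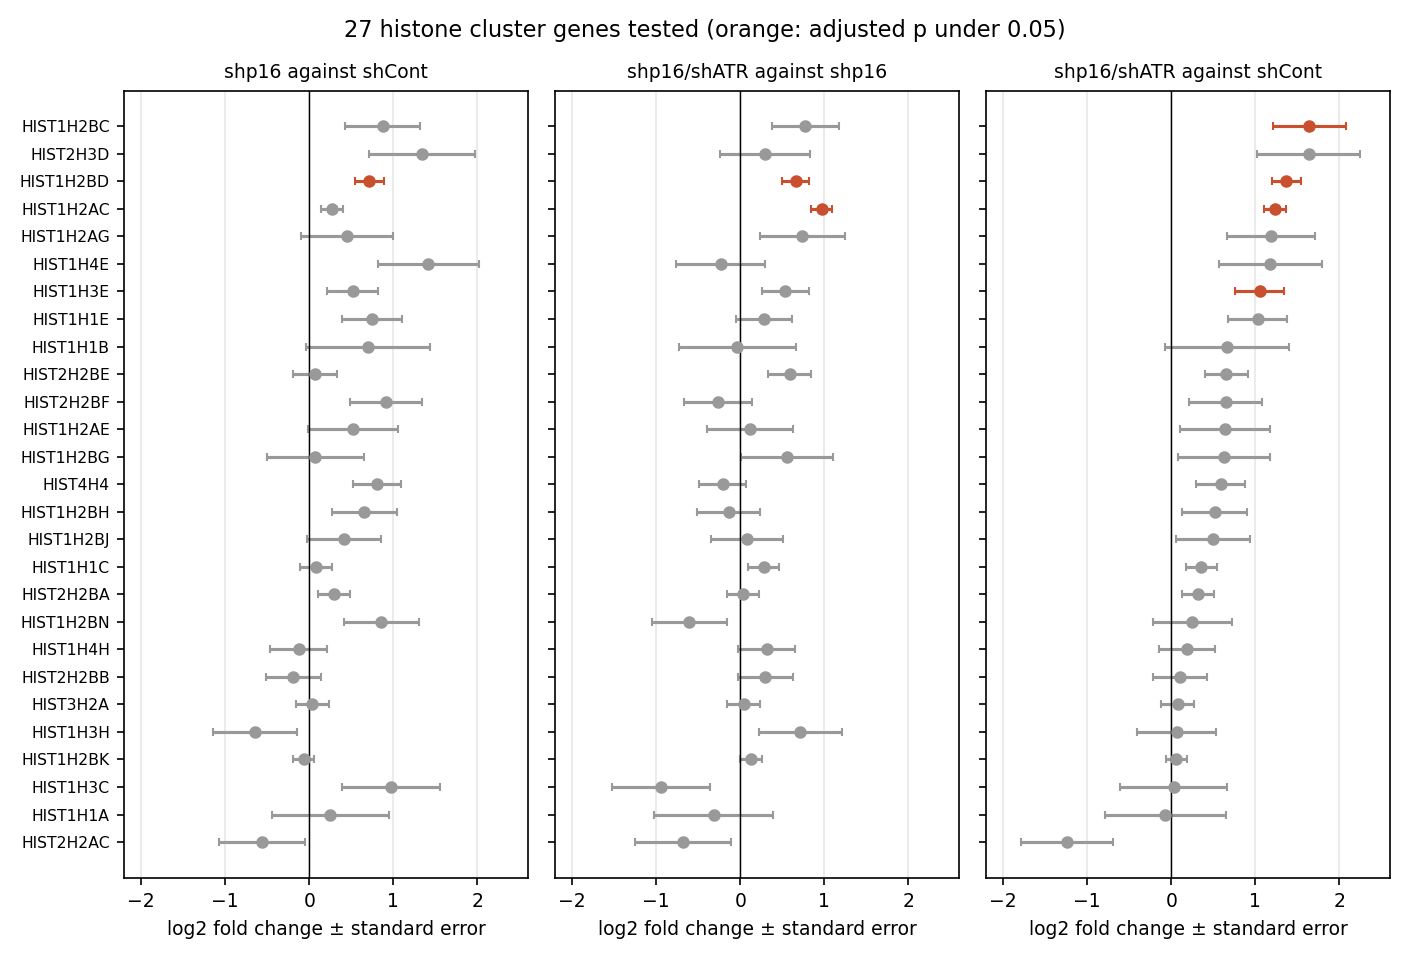
Log2 fold change with its SE for the 27 histone cluster genes tested, 1 panel per comparison and genes in the order of the third panel. Orange points passed an adjusted p of 0.05, and they number 1, 2 and 4 in the panels from left to right.

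The 4 called members lie within 111 kb of chromosome 6, from 26115101 to 26225844, in a group of 55 members that spans 2135 kb. The stretch was drawn from the first start to the last end of these same genes, so it describes where they lie and was not tested. That stretch holds 13 members, of which 8 were tested, and HIST1H1E, HIST1H2AE, HIST1H2BG and HIST1H4E are the tested ones that were not called. HIST1H2BC and HIST1H2AC are neighbours there, and HIST1H1E and HIST1H2BD follow next among the members. Of the 4, HIST1H2AC, HIST1H2BC and HIST1H2BD have a stem-loop in an annotated transcript and a spliced gene model. In HIST1H2BC and in HIST1H2BD it was found in 1 of 2 annotated transcripts, and that transcript has 1 exon.

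Members with spliced gene models were examined by their sums. This split does not set apart genes with bases past the stem-loop. The intronless HIST2H2BE and HIST1H2AG have 1729 and 1761 bases after it in annotated transcripts. In the spliced HIST1H2BK and HIST1H2BJ no stem-loop was found. The 14 spliced genes gave 59.0% of the member counts. Their sum was 48.2 ± 3.90 CPM in the shCont libraries, 53.8 ± 2.03 in those of shp16 and 67.6 ± 3.11 in those of shp16/shATR. Leaving out HIST1H2BK, a choice made after seeing the data, the other 13 summed to 18.8, 18.5 and 19.1 CPM in the shCont libraries, 24.4, 25.8 and 26.9 in those of shp16 and 37.0, 35.8 and 37.8 in those of shp16/shATR. Those groups were far apart relative to their spread, but the 13 include HIST1H2AC, HIST1H2BD and HIST1H2BC, so the sum is not independent of their calls. The 62 intronless members summed to 35.0 ± 1.64, 38.9 ± 0.706 and 44.0 ± 1.31 CPM. The 34 members with a stem-loop found in an annotated transcript summed to 26.7 ± 0.428, 33.5 ± 1.06 and 47.1 ± 0.629 CPM, and the 42 with none found to 56.6 ± 4.92, 59.2 ± 3.28 and 64.6 ± 3.80 CPM. The 34 also include HIST1H2AC, HIST1H2BD and HIST1H2BC, so this sum is not independent of those calls either. Counts are per gene and do not tell reads before the stem-loop from reads after it.

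A list of 6 members known to give polyadenylated transcripts, HIST1H1C, HIST1H2AC, HIST1H2BD, HIST1H2BK, HIST2H2BE and HIST1H4H, held 64.9% of the member counts. HIST1H2AC and HIST1H2BD were the 2 called members in both comparisons of shp16/shATR. The list summed to between 49.2 and 63.2 CPM in the shCont libraries, 54.7 and 59.6 in those of shp16 and 70.1 and 79.8 in those of shp16/shATR. The other 70 members summed to 28.6 ± 3.23, 35.6 ± 1.31 and 36.7 ± 1.99 CPM. In these 70 shp16 lay above shCont in every library and shp16/shATR overlapped shp16, while in the 6 it was the shp16/shATR libraries that lay apart. In summed FPKM the 70 overlapped between every pair of groups, and in the 6 shp16/shATR still lay apart. The 6 include HIST1H2AC and HIST1H2BD, so their sum is not independent of those calls.
RNAs that lack a poly(A) tail by nature were read beside them as a sign of how such RNA was captured. Of 18 on the list 8 were in the tables and 5 were tested. SCARNA2, a small Cajal body RNA, had between 0.398 and 1.23 CPM in the shCont libraries. It had 1.56, 1.66 and 1.41 CPM in those of shp16 and 2.36, 1.43 and 1.95 in those of shp16/shATR. SCARNA2 rose in shp16/shATR against shCont (log2 fold change 1.43, SE 0.40, adjusted p = 0.0229), a call that held in 12 of the 16 other fits. RN7SL1, of the signal recognition particle, ran from 14.5 to 98.7 CPM in the shCont libraries, 41.7 to 136 in those of shp16 and 28.6 to 118 in those of shp16/shATR. The other 4 tested were not called by edgeR in any comparison, and their log2 fold changes in shp16/shATR against shCont were 0.86 for RN7SL1, 0.61 for SNORD3A, 0.43 for RPPH1 and −0.52 for TERC. The part of RNA capture in the histone results was not tested.

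Histone genes outside the clusters were read for comparison. Of 12 on the list 10 were tested. H1F0, which encodes a linker histone of slowly dividing and differentiated cells, had 28.9, 31.5 and 30.2 CPM in the shCont libraries, 53.0, 60.3 and 61.0 in those of shp16 and 61.9, 65.5 and 62.8 in those of shp16/shATR. It rose in shp16 against shCont (log2 fold change 0.94, SE 0.10, adjusted p = 0.000106) and in shp16/shATR against shCont (log2 fold change 1.07, SE 0.10, adjusted p = 3.00e-05). H3F3B, one of the genes of the replacement histone H3.3, rose in shp16/shATR against shCont, from between 227 and 262 CPM to between 372 and 389 CPM (log2 fold change 0.65, adjusted p = 0.000872). H2AFY, which encodes macroH2A1, fell by 0.46 on the log2 scale (adjusted p = 0.00470). CENPA, the centromeric H3 variant, fell by 0.43 (adjusted p = 0.0371), a call that held in 8 of the 16 other fits. H2AFX, which encodes the H2A variant phosphorylated at DNA breaks, fell by 0.59 (adjusted p = 0.0431). The H2AFX call held in 7 of the 16 other fits. Its level was 107 CPM in shCont replicate 1 and 59.8 and 60.7 in the other shCont libraries. Without shCont replicate 1 it fell by 0.26 (adjusted p = 0.00839). In all, 2 of the 10 rose and 3 fell in shp16/shATR against shCont, beside 10.9% of all genes called higher and 12.7% called lower. Without shCont replicate 1 it was 6 and 3, beside 2569 and 2826 of 16184 genes tested. In shp16/shATR against shp16 edgeR called 0 of the 10, with 2 at an unadjusted p under 0.05, DESeq2 called 2 and limma 1. Of all genes 2.73% were called higher there by edgeR and 3.49% lower. Without shCont replicate 1 edgeR called 2 higher and 3 lower, beside 1447 and 1776 of 16184 genes tested.

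Genes that process or transcribe histone messenger RNA were called lower and not higher by edgeR in shp16/shATR. SLBP, the stem-loop binding protein, had 51.8, 47.7 and 46.9 CPM in the shCont libraries, 42.0, 49.7 and 49.7 in those of shp16 and 36.5, 39.2 and 34.7 in those of shp16/shATR. It fell by a log2 fold change of 0.41 in shp16/shATR against shCont (SE 0.11, adjusted p = 0.0191). The SLBP call held in 14 of the 16 other fits. Of the 18 genes 5 fell in that comparison and 3 in shp16/shATR against shp16, where the list's median was −0.15, beside 12.7% and 3.49% of all genes called lower. DESeq2 called 1 gene of the list higher against shCont, LSM11 of the U7 particle, named after its values were seen, which missed the threshold in edgeR (log2 fold change 0.41, adjusted p = 0.0564). ZNF473, which acts in histone pre-mRNA 3′ end processing, fell by 0.62 (adjusted p = 0.00330), CPSF3, the endonuclease, by 0.46 (adjusted p = 0.00618) and CTIF, a translation factor of the cap-binding complex, by 0.91 (adjusted p = 0.000901), all against shCont. Against shp16, UPF1, which acts in histone mRNA decay, fell by 0.43 (adjusted p = 0.0225) and ERI1, the 3′ exonuclease of the stem-loop, by 0.59 (adjusted p = 0.0136). The UPF1 call held in 9 of the 16 other fits and the ERI1 call in 11. ERI1 had risen by 0.39 in shp16 against shCont (adjusted p = 0.0454), a call that held in 3 of 16 other fits. NPAT was not called, at 37.2, 73.3 and 80.1 CPM in the shCont libraries, 63.9, 62.7 and 59.4 in those of shp16 and 62.7, 67.8 and 68.8 in those of shp16/shATR. The counts of genes that fell against shp16 and shCont were 6 and 10 without shCont replicate 1, and 0 and 5 without shp16 replicate 1. Of all genes tested, 1776 and 2826 of 16184 were called lower in the first fit. In the second it was 298 and 2125 of 16251.

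Of 19 histone chaperones 5 fell in shp16/shATR against shp16, where 3.49% of all genes were called lower. CHAF1A and CHAF1B, subunits of the CAF-1 complex that places new H3 and H4 behind the replication fork, fell by 0.72 (adjusted p = 0.00394) and 0.72 (adjusted p = 0.00357). ASF1B, which hands H3 and H4 to CAF-1, fell by 0.61 (adjusted p = 0.0146) and HIRA, which places H3.3 outside replication, by 0.73 (adjusted p = 0.0141). The ASF1B and HIRA calls each held in 11 of the 16 other fits. HJURP, the chaperone of CENPA, fell in shp16/shATR against shCont by 0.47 (adjusted p = 0.00439), one of 5 chaperones that fell there, where 12.7% of all genes were called lower. In that comparison edgeR called none higher, with 2 at an unadjusted p under 0.05 in that direction, beside 10.9% of all genes called higher. DESeq2 called 2 higher and limma 1. Without shCont replicate 1 edgeR called 3 higher and 5 lower, beside 2569 and 2826 of 16184 genes tested. CHAF1B had 31.3, 26.6 and 25.4 CPM in shCont, 34.3, 36.1 and 35.8 in shp16 and 21.5 in each shp16/shATR library. In shp16 against shCont 3 of the 19 rose and 1 fell, beside 7.23% of all genes called higher and 7.59% called lower. Without shCont replicate 1 the counts were 7 and 3, beside 2170 and 2022 of 16184 genes tested. Without shp16 replicate 1 they were 0 and 1, beside 735 and 720 of 16251.

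S-phase genes outside the clusters were called lower and not higher by edgeR in shp16/shATR. Of 20 such genes, among them those of the MCM helicase, the cyclins and the nucleotide-synthesis enzymes, 10 fell against shp16 and 9 against shCont, beside 3.49% and 12.7% of all genes called lower. Their median log2 fold change was −0.44 against shp16 and −0.30 against shCont. EdgeR, DESeq2 and limma called none of them higher in either comparison, and 0 had an unadjusted p under 0.05 in that direction, although without shCont replicate 1 edgeR called 1, PCNA, higher against shCont. Their summed level ran from 2561 to 2862 CPM in the shCont libraries, 2780 to 3106 in those of shp16 and 2130 to 2234 in those of shp16/shATR, so that shp16/shATR lay below all other libraries. Against shp16 the count of genes that fell was 15 without shCont replicate 1 and 4 without shp16 replicate 1. In those fits 1776 of 16184 and 298 of 16251 genes tested were called lower. In shp16 against shCont 2 of the 20 rose and 1 fell, beside 7.23% of all genes called higher and 7.59% called lower. Without shCont replicate 1 the counts were 7 and 1, beside 2170 and 2022 of 16184 genes tested. Without shp16 replicate 1 there were none either way, beside 735 and 720 of 16251. In these bulk samples a smaller share of cells in S phase and less RNA of these genes per cell cannot be told apart.

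**Figure D5:**
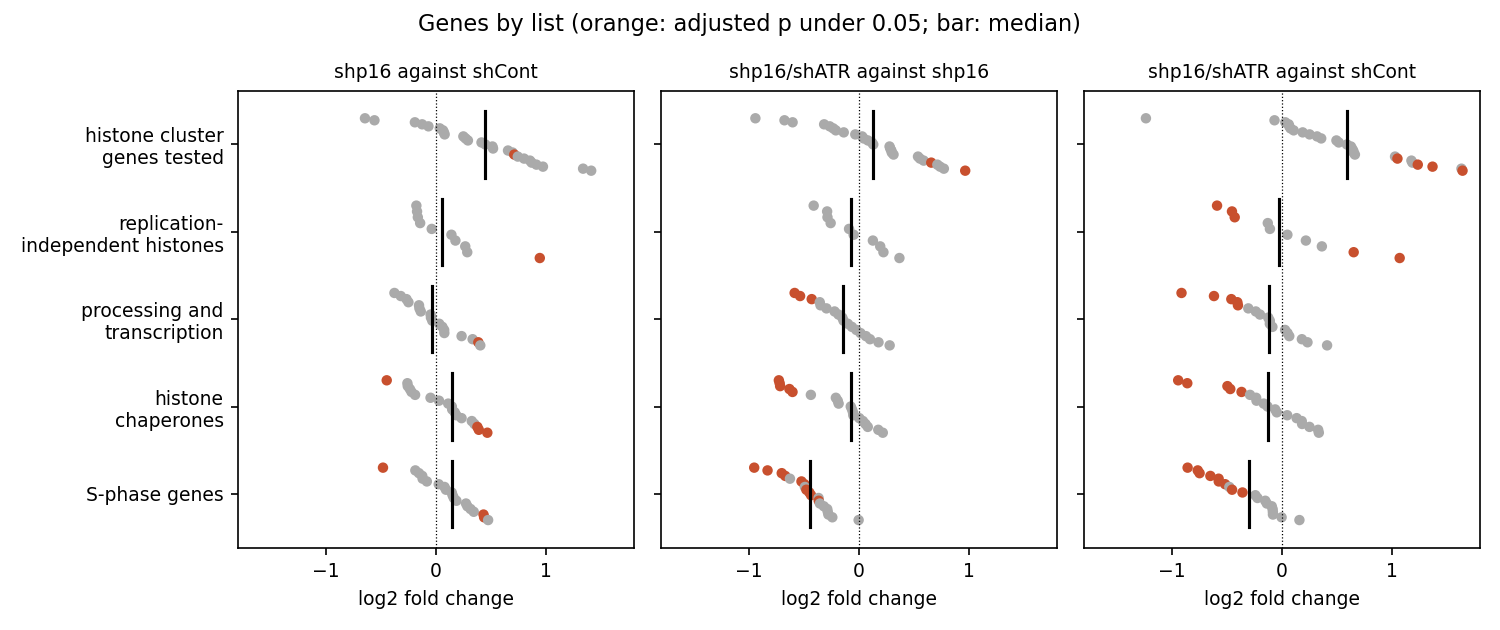
Log2 fold changes of the histone cluster genes tested and of 4 lists of related genes, 1 point per gene, orange where the adjusted p was under 0.05, with the median of each list as a bar. In both shp16/shATR panels the median of the cluster genes lies above 0, at 0.13 and 0.59, and that of the S-phase genes below 0, at −0.44 and −0.30.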

How the data were processed

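RNA of SKMEL28 cells was extracted with Trizol, treated with DNase and cleaned on columns, and 9 libraries were made, sequenced and processed at Novogene. Per the labels, the submitters' processing notes name STAR 2.6.1, DESeq2 2 and GRCh38, while the gene coordinates in the deposited tables are those of GRCh37. The counting program, its use of strand and the annotation release are not given in the sources used here. The authors deposited read counts for 48162 genes, without normalization, and FPKM values, which a count divided by gene length and library total gives back (largest relative difference 4.22e-07). The shp16/shATR columns of counts, 3 in number, share a name, and each matched 1 FPKM column, which gave its replicate number. No column was left out.

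All 9 libraries were fitted together with edgeR 4.0.16 (R 4.3.3), using filterByExpr, TMM factors and its quasi-likelihood test, with 1 coefficient per group and Benjamini-Hochberg adjustment over 15776 genes at 0.05. CPM are TMM-scaled. The 16 other fits were upper-quartile normalization, library size only, DESeq2 1.42.0, no filter beyond a total of 1 count, the replicate number as a block, only the groups compared, limma 3.58.1 on log2(FPKM + 0.1) and each library left out. An adjusted p of 0.01 was also tried. The biological coefficient of variation was 0.149, and 0.0903 without shCont replicate 1. The procedure was tested on simulated data.

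Members were matched by symbol to GENCODE release 29, 76 of 76, for transcripts and stem-loops, and promoter windows came from RefSeq. Named genes are HIST1H1E, the 4 members of each class with the highest mean FPKM, every member called, up to 5 called genes of each list by smallest p, SLBP, NPAT, H2AFX, H1F0, CDKN2A and ATR. Other members with the lowest or highest fold change, or without overlap between groups, were chosen after their values were seen. Members and lists were chosen with earlier results of these data known.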

Additional observations from a re-analysis of the deposited data

How the results depend on the processing

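The counts of called members rest on few genes and moved with the processing. In shp16 against shCont the count was 1 and became 2 with no filter on low counts, where HIST1H3D was added, 0 in the fit of only the groups compared, 0 at an adjusted p of 0.01, and 0 to 1 with each library left out. In shp16/shATR against shp16 the count was 2 and became 1 with library size only, 1 with no filter, 1 at an adjusted p of 0.01, and 1 to 2 with each library left out. In shp16/shATR against shCont the count was 4 and became 2 at an adjusted p of 0.01 and 2 to 5 with each library left out. With the replicate number as a block the 3 counts were 1, 1 and 4, and HIST1H2BD was the call lost against shp16. Libraries of the same number did not deviate together, with correlations from −0.24 to 0.22, so the numbers were not taken as pairs. The summed H2A level in shp16/shATR relative to shCont moved from 1.71 to 1.33 in FPKM, and the H4 level from 1.28 to 1.05. The H3 level relative to shCont, 1.31 in shp16 and 1.38 in shp16/shATR, turned to 0.743 and 0.643 over the 2 H3 members that have no identical protein elsewhere. Those 2 hold 79 counts in all, between 3 and 16 a library, and overlap between every pair of groups, so no direction is read from them. No such value could be had for H4, whose single such member had no counts. Of 684 other values of the 43 fold changes checked, 0 changed sign, 594 stayed on their side of the threshold, 82 lost it and 8 gained it. Depth is a limit: 49 of 76 members were too low to test, and a member at under 20 counts a library cannot show a small change.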
